A study of Cricetulus griseus with 9 samples.

Results

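The 162 genes described here encode Rab GTPases and the proteins that sort cargo in endosomes, and they were taken from the 6753 genes of the deposited expression table by their symbols alone. A gene was a member where its symbol began with Rab, Vps, Snx, Arl or Stx followed by a digit, with Chmp, Vamp, Tbc1d or Exoc, or with Ap1 to Ap4 and a subunit letter, or was Arf1 to Arf6. No expression value enters that rule, though members and lists were chosen with earlier results of these data known. The members fell into 16 role lists, the largest being the Rab GTPases with 30 genes, the TBC1D family with 17, the sorting nexins with 16 and the AP adaptors with 15. The AP adaptors comprise 8 large, 4 medium and 2 small subunits and a further gene whose symbol fits none of these classes. Symbols are not functions, and some members act elsewhere: Vps72 encodes a chromatin protein, Arl6ip4 a nuclear protein linked to splicing, and Rab5if a factor of membrane protein assembly in the endoplasmic reticulum.

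RNA was sequenced from MI5-4, a Chinese hamster ovary (CHO) cell line, in 3 groups of 3 libraries. The EV group carried an empty vector and is described by the submitters as null for hexokinase, the enzyme that phosphorylates glucose as it enters glycolysis. The WTHK2 group is labelled as expressing wild-type HK2, the hexokinase isoform that can bind mitochondria. Cells of the LAC group carried the empty vector too and were kept in 10 mM sodium lactate over 24 h. All groups share the MI5-4 background and a glucose-containing medium with fetal bovine serum, so each comparison was made within 1 cell line. The labels number the libraries but do not say that they came from separate cultures, so a p-value covers only their spread, which may be technical. They also do not say whether WTHK2 was 1 clone or what drives the HK2 sequence.

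Rab GTPases are molecular switches: bound to GTP they sit on a particular membrane and recruit motors, tethers and fusion factors, and GTPase-activating proteins such as the TBC1D family turn them off. Cargo taken up from the plasma membrane by clathrin and the AP2 adaptor reaches early endosomes, from which retromer and sorting nexins return receptors to the Golgi or the surface, while ESCRT complexes push ubiquitinated receptors into vesicles bound for the lysosome. Tethering complexes hold a vesicle at its target, and SNARE proteins then fuse the membranes. CHO cells are widely used to study these routes and to secrete recombinant proteins.

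Values are the authors' normalized CPM, in which a gene's reads are divided by the size of its library, and changes are differences of mean log2(CPM + 1) with a standard error (SE). Each p-value printed is limma's, adjusted by the Benjamini-Hochberg method over all 6753 genes, and a gene was called at an adjusted p under 0.05. A call is said to have held where it kept its direction and that threshold in each of 21 other fits: other scalings, pseudocounts, filters and variance models, a fit with the replicate numbers as a block, and fits without 1 library or without a pair of libraries. The fits with other filters repeat the main fit, since no gene had a mean under 20.4 CPM, so they could not end a call. All 162 members passed the filter on low values, with means between 21.1 and 413 CPM. The authors' effective library sizes, read from the steps between low values, ran from 18050959 to 26238659 reads. Gene lengths were not used here, so no level is compared between genes. In bulk RNA, fewer cells of a kind and less RNA per cell cannot be told apart.

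The hexokinase labels were checked first. Hk2 was read at 67.3 ± 2.1 CPM in EV, 65.3 ± 1.3 CPM in WTHK2 and 67.8 ± 2.9 CPM in LAC (mean ± SD, n = 3), and Hk1 at 324 ± 7.1 CPM in EV, 285 ± 7.6 CPM in WTHK2 and 302 ± 2.2 CPM in LAC. Hk2 was not higher in the libraries labelled WTHK2 (log2 difference -0.04, adjusted p = 0.522), so its level does not bear out that label, and WTHK2 below stands for the libraries so labelled. Whether reads of the introduced HK2 sequence would be counted in this gene is not known. Hk1 was called lower in WTHK2 (-0.18, adjusted p = 0.000364) and in LAC (-0.10, adjusted p = 0.0277). Its LAC call was lost with the same median in every library. Both genes had reads in EV, the group described as null for hexokinase, and transcript levels do not measure the enzyme. Of the marker lists, 4 of 8 mesenchymal genes were in the table (Vim, Col3a1, Fn1 and Sparc), against 0 of 6 epithelial and 0 of 6 leukocyte genes. Of 13 mitochondrially encoded transcripts only 4 were in the table (CYTB, COX1, COX3 and ND4). These 4 differed between libraries in both compared groups: their median lay 0.73, 0.45 and 0.40 log2 units above the EV mean in WTHK2 libraries 1 to 3, and 0.80, 0.52 and 0.45 above it in LAC libraries 1 to 3. Their part in the results below was not tested. Without replicate 1 of both groups, 17 members rose and 40 fell in WTHK2 against EV, 21 rose and 55 fell in LAC against EV, and 9 were higher and 1 lower in WTHK2 than in LAC. Of all genes, 19.3% rose and 24.3% fell in WTHK2 in that fit, and 19.9% rose and 25.3% fell in LAC. Between WTHK2 and LAC, 8.53% of all genes were higher and 7.76% lower. Rises were 29.8% of members' calls in WTHK2 and 27.6% in LAC, beside 44.2% and 44% over all genes.

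In WTHK2 cells, endosomal sorting genes were more often lower than higher relative to EV. The sorting nexin Snx18 had the largest fall, followed by the GTPase Arl4c, the adaptor subunit Ap1g1, Rab8b and the lipid transfer protein Vps13b, while Arl4d, Rab4a, Vps25 and Arf5 had the largest rises among the calls whose groups did not overlap. Of the 162 members 50 fell (30.9%), where 25.4% of all genes did, and 21 rose (13%), where 21% of all genes did. The median member lay at -0.04 on the log2 scale and the median gene at -0.01. In 90 members (55.6%) the WTHK2 and EV libraries did not overlap, a share near the 57.1% of all genes. The excess of falls over rises depends on how libraries are scaled: with the same median set in every library, 35 members rose and 35 fell (27.2% and 20.2% of all genes), so that the share of members' calls that were rises went from 29.6% to 50%. Over all genes that share went from 45.3% to 57.3%. With quantile normalization 25 members rose and 43 fell, so that rises were 36.8% of members' calls, beside 51.1% over all genes. Of the 50 falls 26 held in every fit, which is 16% of members beside 17% of all genes, and 14 of the 21 rises held (8.64% beside 13.1%).

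In LAC cells the falls were led by Snx18, Snx27, Vps13c, Rab5b and Ap1g1, and the rises by Arf5, Arl3, Rab13, Vps9d1 and Arl2. Falls numbered 62 of 162 members (38.3%, beside 27.1% of all genes) and rises 25 (15.4%, beside 22.4%). The median member lay at -0.06 and the median gene at 0.00. LAC and EV libraries did not overlap in 94 members (58%, beside 57.8% of all genes). With the same median in every library there were 34 rises and 49 falls (30.5% and 21.5% of all genes), and with quantile normalization 33 rises and 52 falls, which moved the share of rises among the calls from 28.7% to 41% and 38.8%. Over all genes that share moved from 45.3% to 58.6% and 53%. Of the 62 falls 43 held in every fit (26.5% of members beside 19.1% of all genes), as did 14 of the 25 rises (8.64% beside 13.6%). The WTHK2 and LAC comparisons use the same 3 EV libraries, so a deviation of those libraries enters both, and the values are set side by side below without a test of likeness.

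**Figure D1:**
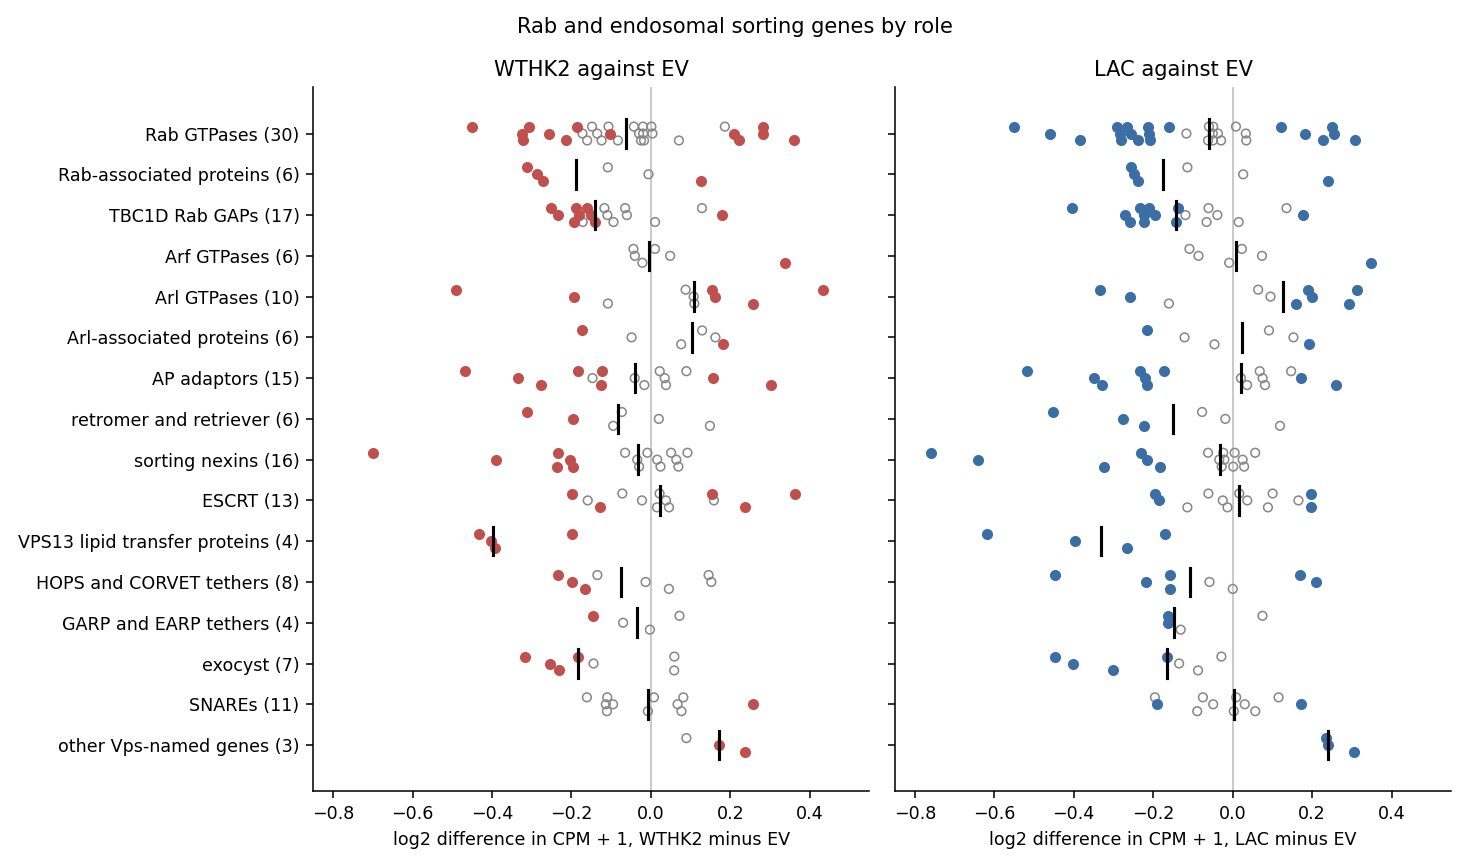
The x axis shows each member's log2 difference in CPM + 1 against EV, for WTHK2 on the left and LAC on the right, with 1 point a gene and the 16 role lists in rows, list sizes in brackets. Filled points were called at an adjusted p under 0.05, open points were not, and the black bars are list medians: the VPS13 row lies wholly below 0, and the Arl row has its median above 0 in both panels.

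Sorting nexins and retromer, which retrieve receptors from endosomes, included the member with the largest fall in both comparisons. Snx18, a BAR-domain nexin that shapes membrane tubules, stood at 38, 38.3 and 35.7 CPM in EV libraries 1 to 3, 20.9, 21.7 and 25.5 in WTHK2 and 20.1, 25.7 and 19.6 in LAC. Every WTHK2 and LAC library lay well below the lowest EV library. The log2 change was -0.70 (SE 0.096, adjusted p = 9.51e-06) in WTHK2 and -0.76 (SE 0.096, adjusted p = 4.6e-06) in LAC. Snx27, which couples receptors with a PDZ-binding motif to retromer and returns them to the surface, was measured at 53.2, 51.5 and 49.3 CPM in EV libraries 1 to 3, 33.4, 40.6 and 43.5 in WTHK2 and 30, 37.6 and 30.5 in LAC. The 3 EV libraries were the highest, without overlap with either group, and the WTHK2 and LAC libraries overlapped each other. Its change was -0.39 (SE 0.09, adjusted p = 0.00156) in WTHK2 and -0.64 (SE 0.09, adjusted p = 1.31e-05) in LAC. Snx13, a nexin with a regulator-of-G-protein-signalling domain, also fell in both (-0.24 and -0.22). Snx9, an endocytic nexin and a paralogue of Snx18, fell in LAC (-0.18, SE 0.042, adjusted p = 0.0013) and had a change of -0.06 in WTHK2 (adjusted p = 0.214). Of the 16 nexins 6 fell and 0 rose in WTHK2, with 3 of the falls holding in every fit, and 6 fell and 0 rose in LAC, where all 6 held. The falls are 37.5% of the list in each comparison, beside 25.4% of all genes in WTHK2 and 27.1% in LAC. Those that held are 18.8% in WTHK2, a share near the 17% of all genes, and 37.5% in LAC, beside 19.1%. The nexins that pair in tubule coats with retromer, Snx1, Snx5 and Snx6, had changes between -0.03 and 0.06 and no call in either comparison. The list's median was -0.03 in WTHK2 and -0.03 in LAC, and with the same median set in every library both turned, to 0.0037 in WTHK2 and 0.01 in LAC.

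Retromer's cargo-binding core joins Vps35, Vps29 and either Vps26a or Vps26b, and of this pair Vps26b was called lower. It stood at 60.6, 57 and 57.5 CPM in EV libraries 1 to 3, 40.2, 48.7 and 52.5 in WTHK2 and 39.9, 46.2 and 41.3 in LAC. Its 3 EV libraries lay above all the others, and the change was -0.31 (SE 0.08, adjusted p = 0.00349) in WTHK2 and -0.45 (SE 0.08, adjusted p = 0.000131) in LAC. Vps26a had changes of 0.02 (95% interval -0.12 to 0.16) and -0.02 (-0.16 to 0.12), with no call. Vps35, the scaffold of the core, fell in LAC (-0.28, SE 0.064, adjusted p = 0.00143), and in WTHK2 its call (-0.20, SE 0.064, adjusted p = 0.0167) was lost without EV replicate 2 or WTHK2 replicate 1 (adjusted p = 0.104 to 0.107). Vps29 was not called in either (0.15 and 0.12), and neither was Vps35l, the scaffold of the related retriever complex (-0.07 and -0.08). Vps26c, the retriever's small subunit, was called in LAC at -0.22, a call lost without EV replicate 1 or 3 or LAC replicate 1, with quantile normalization, with the same median in every library or without replicate 1 of both WTHK2 and LAC (adjusted p = 0.0523 to 0.183).

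The 4 VPS13 genes encode very long proteins that bridge membranes and move lipids between them. All 4 were called lower in both groups, where 25.4% of all genes were in WTHK2 and 27.1% in LAC. In each comparison 3 of these calls held in every fit (75%, beside 17% and 19.1% of all genes). Vps13c, found at contacts of the endoplasmic reticulum with late endosomes and lipid droplets, stood at 118, 137 and 119 CPM in EV libraries 1 to 3, 91.7, 92 and 97.6 in WTHK2 and 73.7, 85.1 and 83.2 in LAC. The LAC libraries were below every WTHK2 library, and both groups were below the EV libraries. Its change was -0.40 (SE 0.061, adjusted p = 2.88e-05) in WTHK2 and -0.62 (SE 0.061, adjusted p = 5.2e-07) in LAC. Vps13b, a Golgi protein, changed by -0.43 (SE 0.069, adjusted p = 4.76e-05) and -0.40 (SE 0.069, adjusted p = 0.000105). For Vps13a, located at contacts of the endoplasmic reticulum with mitochondria, the changes were -0.39 (SE 0.051, adjusted p = 5.52e-06) and -0.27 (SE 0.051, adjusted p = 0.000298). Vps13d, the fourth, was called at -0.20 and -0.17. Vps13d dropped out in WTHK2 without EV replicate 2 (adjusted p = 0.0557), and in LAC without EV replicate 2 or LAC replicate 1 or 3 or with the same median in every library (adjusted p = 0.0633 to 0.103). Transcripts for other long proteins moved the same way: of 55 listed genes for proteins above 2500 residues, none of them members, 47 fell and 0 rose in WTHK2 (median -0.30), and 50 fell and 0 rose in LAC (median -0.31). That list was written with results of these data known, and the part of transcript length in the VPS13 falls was not tested.

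Adaptor complexes select cargo for clathrin-coated vesicles (AP1 at the Golgi and endosomes, AP2 at the plasma membrane) or carry it towards lysosomes (AP3), and each is built from large, medium and small subunits. Most falls were among the large subunits, and both small subunits in the table rose in LAC. Ap1g1, the gamma subunit of AP1, stood at 51.3, 49.3 and 49.3 CPM in EV libraries 1 to 3, 32.7, 36.9 and 38.2 in WTHK2 and 30.5, 40.5 and 33.4 in LAC. All EV libraries were above all others, and the change was -0.47 (SE 0.085, adjusted p = 0.000181) in WTHK2 and -0.52 (SE 0.085, adjusted p = 5.87e-05) in LAC. Ap2b1, the beta subunit of AP2 that binds clathrin, fell as well, with a log2 change of -0.33 (SE 0.057, adjusted p = 0.000102) in WTHK2 and -0.35 (SE 0.057, adjusted p = 5.87e-05) in LAC. Ap2s1, the small sigma subunit of the same AP2 complex, was instead higher, at 64.3, 64.1 and 61.1 CPM in EV libraries 1 to 3, 76.5, 75.3 and 82.8 in WTHK2 and 74.9, 77 and 75.6 in LAC. Its lowest WTHK2 and LAC libraries lay above its highest EV library. The rises were 0.30 (SE 0.053, adjusted p = 0.000125) and 0.26 (SE 0.053, adjusted p = 0.000461). Among AP1 and AP3 large subunits, Ap1b1 and Ap3b1 fell in both comparisons (-0.18 and -0.22 for Ap1b1, -0.28 and -0.33 for Ap3b1).

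Over the 8 large subunits, 6 fell and 0 rose in WTHK2 (median -0.15) and 6 fell and 0 rose in LAC (median -0.23). The falls are 75% of the large subunits in each comparison, beside 25.4% of all genes in WTHK2 and 27.1% in LAC. All 6 LAC falls and 4 of the 6 WTHK2 falls held in every fit, which is 75% and 50%, beside 19.1% and 17% of all genes. Over all 15 AP adaptors, 6 fell and 2 rose in WTHK2 (median -0.04), and 7 fell and 2 rose in LAC (median 0.02). The falls of these 15 are 40% in WTHK2 and 46.7% in LAC, and those that held are 26.7% and 40%. Their rises are 13.3% in each comparison, beside 21% and 22.4% of all genes. Ap2a2, an alpha subunit, lost its WTHK2 call (-0.12) without EV replicate 1 or 2 or WTHK2 replicate 1, with quantile normalization, with the same median in every library or without replicate 1 of both WTHK2 and LAC (adjusted p = 0.0551 to 0.0978). Ap3d1, the delta subunit of AP3, lost its WTHK2 call (-0.12) with the same median in every library (adjusted p = 0.066). The uncalled large subunits were Ap2a1, with 0.04 and 0.02, and Ap1g2, with 0.03 and 0.15. Of the 4 medium subunits, Ap1m1 rose in WTHK2 (0.16, SE 0.045, adjusted p = 0.00776), and Ap2m1, the AP2 subunit that reads tyrosine motifs, was called in neither (0.02 and 0.04). Ap3m1, of AP3, was called lower in LAC (-0.17), a call lost without EV replicate 1 or 2 or LAC replicate 1 or 3, with quantile normalization, with the same median in every library or without replicate 1 of both WTHK2 and LAC (adjusted p = 0.0835 to 0.194). Ap1s1, the other small subunit in the table, rose in LAC (0.17, SE 0.046, adjusted p = 0.0047) and stood at 0.09 in WTHK2 (adjusted p = 0.118). Clathrin, the coat these adaptors recruit, is made of heavy and light chains. Its heavy chain gene Cltc fell in LAC (-0.28, SE 0.039, adjusted p = 1.16e-05), while the light chain genes Clta (0.19, SE 0.05, adjusted p = 0.00458) and Cltb (0.31, SE 0.052, adjusted p = 8e-05) rose there. In WTHK2 the heavy chain was called at -0.12 and the light chains Clta and Cltb at 0.21 and 0.15, of which only that of Clta held in every fit. The WTHK2 call of Cltc was lost without EV replicate 1 or 2 or WTHK2 replicate 1, with no variance trend, with the same median in every library or without replicate 1 of both WTHK2 and LAC (adjusted p = 0.055 to 0.0813), and that of Cltb without EV replicate 2 or WTHK2 replicate 1 or without replicate 1 of both WTHK2 and LAC (adjusted p = 0.0788 to 0.102).

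**Figure D2:**
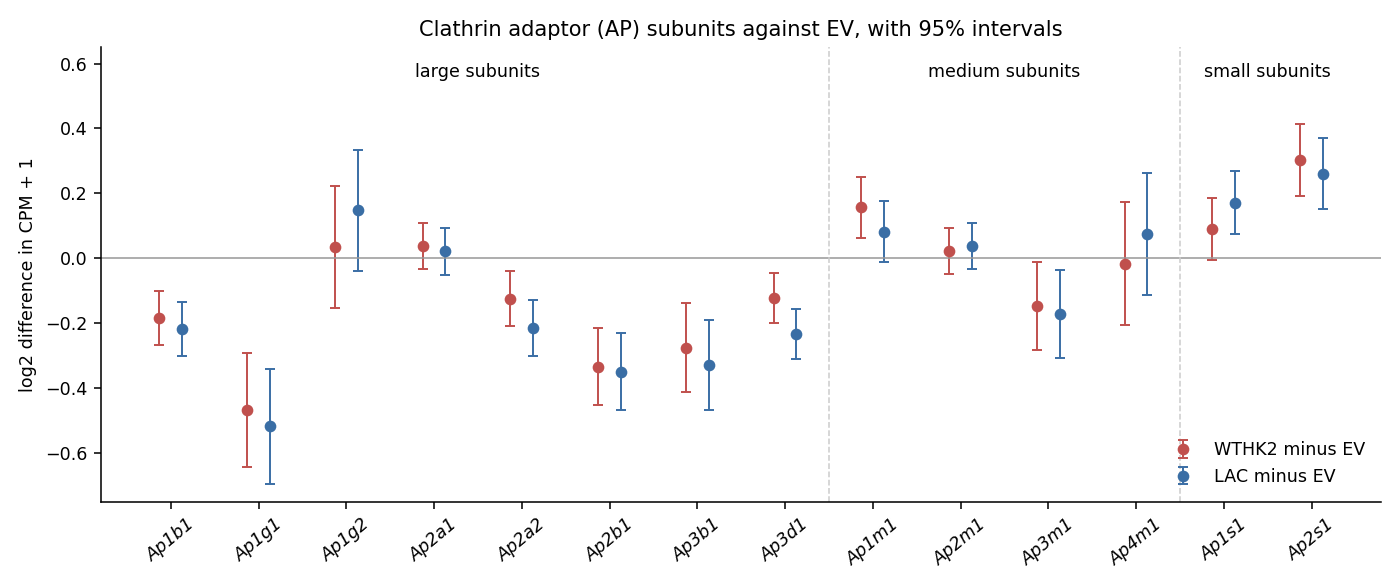
The y axis shows the log2 difference in CPM + 1 of each AP subunit in WTHK2 and in LAC against EV, with 95% intervals from limma. Large subunits stand on the left, with 6 of 8 called lower in each group, medium subunits in the middle and the small subunits Ap1s1 and Ap2s1, above 0, on the right.

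Among the 30 Rab GTPases, 8 fell and 5 rose in WTHK2 (median -0.06), and 13 fell and 6 rose in LAC (median -0.06). The falls are 26.7% of the Rabs in WTHK2, a share near the 25.4% of all genes, and 43.3% in LAC, beside 27.1%. The rises are 16.7% and 20%, beside 21% and 22.4%. In every fit, 4 falls and 4 rises held in WTHK2, and 9 falls and 2 rises in LAC. The falls that held are 13.3% of the Rabs in WTHK2 and 30% in LAC, beside 17% and 19.1% of all genes. The rises that held are 13.3% and 6.67%, beside 13.1% and 13.6%. WTHK2 falls numbered 4 without EV replicate 1, 5 without WTHK2 replicate 1 and 5 with the same median in every library, and LAC rises numbered 3 without EV replicate 1, EV replicate 2 or LAC replicate 3. Rab8b, which acts in traffic to the plasma membrane and cell junctions, stood at 45.1, 42.3 and 39.3 CPM in EV libraries 1 to 3, 28.4, 33.7 and 30 in WTHK2 and 30.6, 34.2 and 31.5 in LAC. No WTHK2 or LAC library reached the lowest EV library. Its change was -0.45 (SE 0.077, adjusted p = 0.000111) in WTHK2 and -0.38 (SE 0.077, adjusted p = 0.000433) in LAC. The paralogue Rab8a, best known for exocytosis and cilium growth, had changes of -0.02 (95% interval -0.15 to 0.12) and -0.05 (-0.18 to 0.09) and no call. Rab22a, an early endosomal Rab of the recycling route, was measured at 43.2, 42.7 and 40.7 CPM in EV libraries 1 to 3, 29.1, 36.3 and 35.8 in WTHK2 and 27.6, 32.4 and 31.4 in LAC. Both compared groups lay below EV, with changes of -0.32 (SE 0.083, adjusted p = 0.00364) and -0.46 (SE 0.083, adjusted p = 0.000158). Rab1b, needed for transport from the endoplasmic reticulum to the Golgi, and Rab23, a regulator of hedgehog signalling and cilia, fell in both comparisons as well (Rab1b -0.26 and -0.21, Rab23 -0.32 and -0.29).

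The Rab5 paralogues, master organisers of early endosomes, are represented by Rab5b, lower in LAC, and Rab5c, higher in WTHK2. Rab5b stood at 34.3, 30.6 and 35.8 CPM in EV libraries 1 to 3, 23.5, 28.9 and 28.5 in WTHK2 and 19, 24.2 and 24.8 in LAC. Both compared groups lay below the EV libraries and overlapped each other. The LAC change was -0.55 (SE 0.099, adjusted p = 0.000157). In WTHK2 the call of Rab5b (-0.31, SE 0.099, adjusted p = 0.0159) was lost without EV replicate 1 or 3 or WTHK2 replicate 1 (adjusted p = 0.06 to 0.0894). Rab5c had 336, 330 and 334 CPM in EV libraries 1 to 3, 382, 396 and 390 in WTHK2 and 341, 343 and 342 in LAC. The WTHK2 libraries were all above the rest, with a rise of 0.22 (SE 0.033, adjusted p = 2.47e-05), and LAC was not called against EV (0.03, adjusted p = 0.402). Of the 14 listed genes that flank Rab5c in gene order, 7 on each side, 9 also rose in WTHK2, beside 21% of all genes. The median of the 14 was 0.20, so the value at Rab5c is close to that of its neighbours. Their part in its rise was not tested.

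Higher Rabs included Rab13, which serves tight junctions and recycling, and Rab34, which acts in macropinosomes, lysosome positioning and cilium assembly. Rab13 stood at 43.4, 41.5 and 47.1 CPM in EV libraries 1 to 3, 52.9, 53.2 and 54.9 in WTHK2 and 55.4, 54.5 and 53.9 in LAC. Its EV libraries were the lowest 3 of 9, and the changes were 0.28 (SE 0.06, adjusted p = 0.000775) and 0.31 (SE 0.06, adjusted p = 0.000348). Rab34, with 186, 190 and 189 CPM in EV libraries 1 to 3, 234, 221 and 233 in WTHK2 and 241, 218 and 217 in LAC, also had its 3 lowest values in EV. The rises of Rab34 were 0.28 (SE 0.043, adjusted p = 3.01e-05) and 0.26 (SE 0.043, adjusted p = 7.79e-05). Rab4a, which drives fast recycling from early endosomes to the surface, stood at 36.1, 34.9 and 37.6 CPM in EV libraries 1 to 3, 46, 45.8 and 48.5 in WTHK2 and 32.8, 34.1 and 38 in LAC. The WTHK2 libraries were all above the EV and LAC libraries, which overlapped each other. Its change was 0.36 (SE 0.069, adjusted p = 0.000271) in WTHK2 and -0.05 in LAC (adjusted p = 0.566). Rab4b, the paralogue, was called higher at 0.21 in WTHK2 and 0.23 in LAC. For Rab4b the WTHK2 call was lost without EV replicate 1 or 2 or 3 or WTHK2 replicate 1 or 3, with quantile normalization or without replicate 1 of both WTHK2 and LAC (adjusted p = 0.0513 to 0.181), and the LAC call without EV replicate 1 or LAC replicate 3 (adjusted p = 0.107 to 0.129). Falls in LAC whose calls held also included Rab14, of the endosome-to-Golgi route (-0.27), Rab3d, of secretory granules (-0.24), Rab6a, of the Golgi (-0.28), and Rab11b, of recycling endosomes (-0.21). The broad-acting Rab7 (late endosomes), Rab2a (Golgi) and Rab11a (recycling endosomes) were not called in any comparison, and their changes lay between -0.04 and 0.03.

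**Figure D3:**
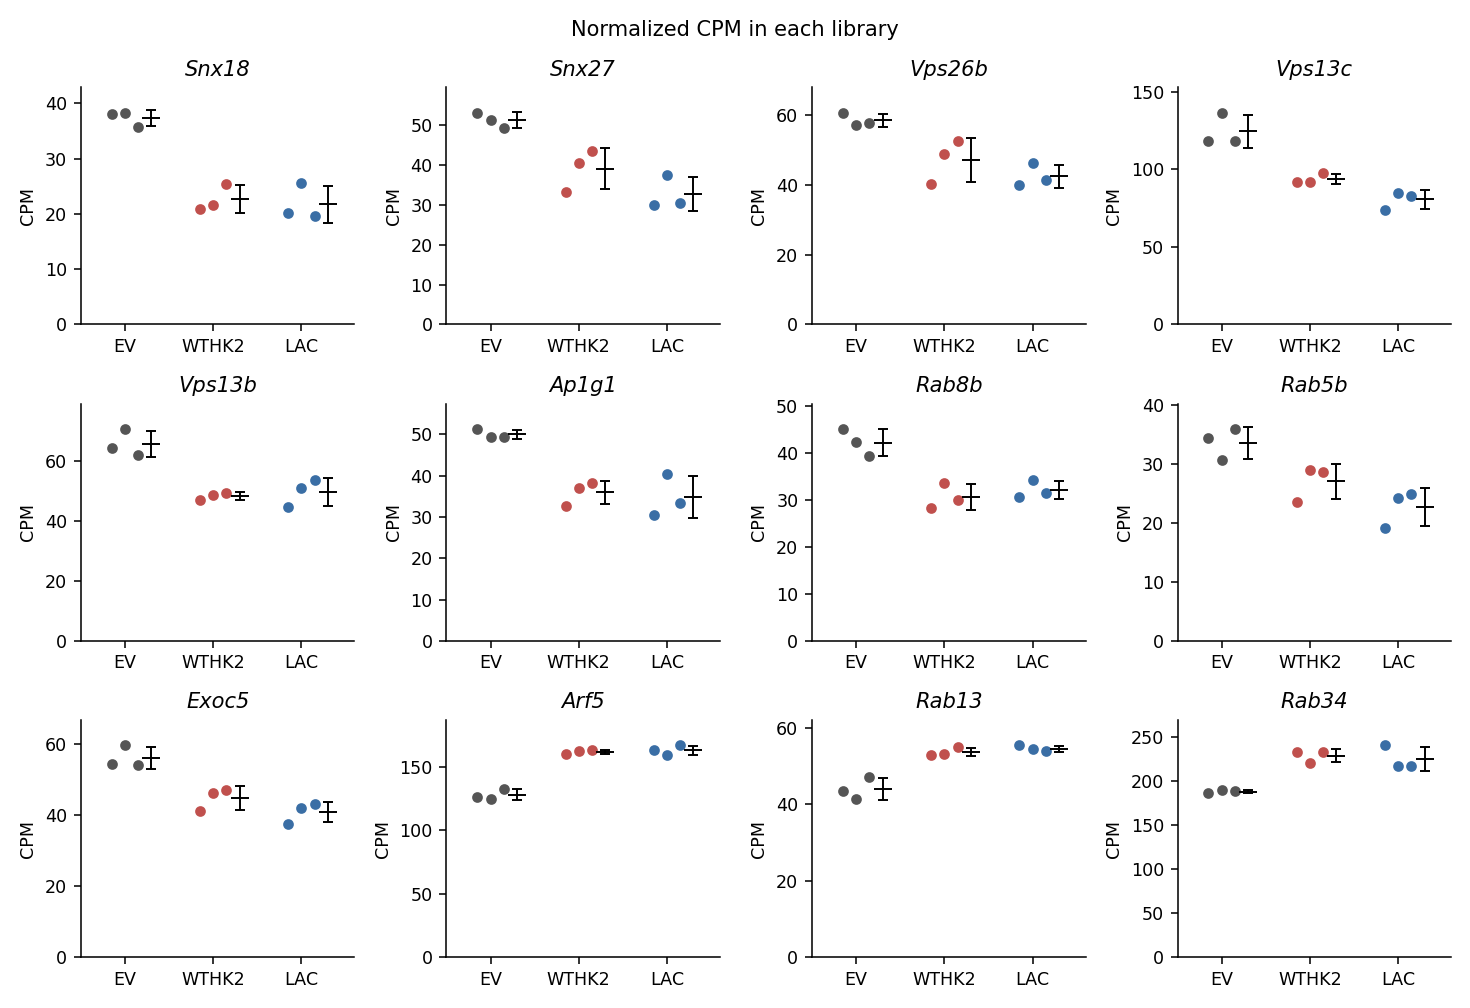
Each panel shows 1 gene's normalized CPM (y axis, from 0) in the 3 libraries of each group as coloured points, with the group mean and SD beside them in black. In Snx18 to Exoc5 the EV points are the highest, and in Arf5, Rab13 and Rab34 they are the lowest.

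Proteins that bind or switch off Rabs had more falls than rises. Of the 17 TBC1D genes, most of which encode Rab GTPase-activating proteins, 8 fell and 1 rose in WTHK2 (median -0.14), with 3 falls and 0 rises holding in every fit; the falls are 47.1% of the list, beside 25.4% of all genes. In LAC 10 fell and 1 rose (median -0.14), with 6 falls holding, and the falls are 58.8%, beside 27.1% of all genes. The falls that held are 17.6% of the list in WTHK2, a share near the 17% of all genes. In LAC they are 35.3%, beside 19.1%. WTHK2 falls numbered 5 without any 1 EV library or without WTHK2 replicate 1 or 2, and 4 with the same median in every library. Tbc1d1, a GTPase-activating protein of the glucose transporter route downstream of insulin and AMPK, stood at 110, 113 and 105 CPM in EV libraries 1 to 3, 89.5, 92.4 and 92.5 in WTHK2 and 90.9, 91.5 and 88.4 in LAC. Neither group overlapped EV, and the changes were -0.25 (SE 0.047, adjusted p = 0.000222) and -0.27 (SE 0.047, adjusted p = 0.000107). Tbc1d5, which acts on Rab7 together with retromer, changed by -0.19 (SE 0.057, adjusted p = 0.0091) and -0.26 (SE 0.057, adjusted p = 0.000992). The corresponding values for Tbc1d20, which acts on Rab1 and Rab18, were -0.18 (SE 0.045, adjusted p = 0.00269) and -0.22 (SE 0.045, adjusted p = 0.000417). Tbc1d22a fell in LAC (-0.40, SE 0.071, adjusted p = 0.000116) and was not called in WTHK2 (-0.17, adjusted p = 0.0522). Another 3 Rab partners fell in both comparisons: the Rab11 effectors Rab11fip3 (-0.31 and -0.24) and Rab11fip5 (-0.27 and -0.26), and Rab3gap2 (-0.29 and -0.25), a subunit of a complex that acts on Rab3 and Rab18. Its partner subunit Rab3gap1 was not called (-0.11 and -0.11).

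The Arf and Arl families are GTPases related to Rabs that recruit coats and tethers. Arf5, a Golgi and early secretory Arf, stood at 127, 125 and 133 CPM in EV libraries 1 to 3, 160, 163 and 163 in WTHK2 and 163, 160 and 167 in LAC. Every WTHK2 and LAC library was above every EV library, and the rises were 0.34 (SE 0.041, adjusted p = 2.43e-06) and 0.35 (SE 0.041, adjusted p = 2.46e-06). It was the only called gene of the 6 Arfs in either comparison against EV: the other 5, among them Arf1 (Golgi coats) and Arf6 (plasma membrane recycling), had changes between -0.11 and 0.07. The Arl list, with 10 genes, was one of the few with more rises than falls: 4 rose and 2 fell in WTHK2 (median 0.11), and 5 rose and 2 fell in LAC (median 0.13). The rises are 40% of the list in WTHK2 and 50% in LAC, beside 21% and 22.4% of all genes. In every fit 3 of the WTHK2 rises and 2 of the LAC rises held (30% and 20%, beside 13.1% and 13.6% of all genes). Rises in LAC numbered 2 without EV replicate 1 or LAC replicate 3, and 3 without EV replicate 2 or 3, LAC replicate 1 or 2 or WTHK2 replicate 2 or 3. Arl3, a cilium GTPase that releases lipidated cargo, and Arl2, a regulator of tubulin folding, rose in both (Arl3 0.16 and 0.31, Arl2 0.15 and 0.29).

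Arl4c and Arl4d, close paralogues that recruit Arf exchange factors to the plasma membrane, went in opposite directions in WTHK2. Arl4c had 27.5, 32.1 and 28.7 CPM in EV libraries 1 to 3, 19.6, 20.7 and 21.7 in WTHK2 and 21.2, 25.3 and 23 in LAC. The EV libraries were its highest, and the change was -0.49 (SE 0.086, adjusted p = 0.000128) in WTHK2 and -0.33 (SE 0.086, adjusted p = 0.00308) in LAC. Arl4d, with 32.9, 32.6 and 34.2 CPM in EV libraries 1 to 3, 45, 46.2 and 44.4 in WTHK2 and 36.1, 38.8 and 36.8 in LAC, had its 3 highest values in WTHK2. The rise of Arl4d in WTHK2 was 0.43 (SE 0.064, adjusted p = 1.97e-05). In LAC its call (0.16) was lost without EV replicate 1 or 2 or LAC replicate 2 or 3 or WTHK2 replicate 2 or 3 or in a fit of the 6 libraries compared (adjusted p = 0.0502 to 0.12). Arl8b, which couples lysosomes to kinesin, fell in LAC (-0.26, SE 0.072, adjusted p = 0.0059), and its paralogue Arl8a had values of 0.11 and 0.10 with no call. In WTHK2 Arl8b lost its call (-0.19) without EV replicate 1 or 2 or 3 or WTHK2 replicate 1 or 3, with the same median in every library or without replicate 1 of both WTHK2 and LAC (adjusted p = 0.0511 to 0.142).

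ESCRT genes, 13 in the table, showed no common direction: 3 rose and 2 fell in WTHK2, 2 rose and 2 fell in LAC, and the medians were 0.02 and 0.02. The rises are 23.1% and 15.4%, beside 21% and 22.4% of all genes. The falls are 15.4% in each comparison, beside 25.4% and 27.1%. Vps25, a subunit of ESCRT-II, was the most changed of them, at 104, 112 and 105 CPM in EV libraries 1 to 3, 138, 141 and 134 in WTHK2 and 126, 116 and 126 in LAC. The groups did not overlap EV, and the changes were 0.36 (SE 0.048, adjusted p = 5.52e-06) and 0.20 (SE 0.048, adjusted p = 0.00207). Of the 14 listed genes that flank it 7 also rose in WTHK2, beside 21% of all genes, and the median of the 14 was 0.14. Chmp4b, the main filament of ESCRT-III, rose in WTHK2 (0.15, SE 0.043, adjusted p = 0.00698), and Chmp3, another ESCRT-III subunit, fell in LAC (-0.19, SE 0.044, adjusted p = 0.00184). Chmp3 lost its WTHK2 call (-0.13) without EV replicate 1 or WTHK2 replicate 1, with no variance trend, with quantile normalization, with the same median in every library or without replicate 1 of both WTHK2 and LAC (adjusted p = 0.0607 to 0.114). Vps37c, of ESCRT-I, fell in WTHK2 (-0.20, SE 0.053, adjusted p = 0.00448). So did 9 of the 14 listed genes that flank it (median of the 14 -0.15), beside 25.4% of all genes. Vps4a, the ATPase that takes ESCRT-III apart, was not called (0.05 and 0.09).

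Tethers, like all listed genes, were called lower more often than higher. In the exocyst, the complex that holds secretory and recycling vesicles at the plasma membrane, 4 of 7 subunits fell and 0 rose in WTHK2 (median -0.18), and 4 fell and 0 rose in LAC (median -0.16). The falls are 57.1% in each comparison, beside 25.4% of all genes in WTHK2 and 27.1% in LAC. In every fit 2 falls held in WTHK2 and 3 in LAC (28.6% and 42.9%, beside 17% and 19.1% of all genes). Without EV replicate 2 the WTHK2 falls numbered 2. Exoc5 stood at 54.4, 59.5 and 54.1 CPM in EV libraries 1 to 3, 41.1, 46.3 and 47.1 in WTHK2 and 37.6, 42 and 43 in LAC. The EV libraries were above the others, with changes of -0.32 (SE 0.07, adjusted p = 0.00109) and -0.45 (SE 0.07, adjusted p = 3.93e-05). Exoc4 and Exoc2 fell in LAC (-0.40 and -0.30). Their WTHK2 calls were weaker: that of Exoc4 (-0.25) was lost without EV replicate 2 or WTHK2 replicate 1 (adjusted p = 0.0546 to 0.0619), and that of Exoc2 (-0.18) without EV replicate 2 or 3 or WTHK2 replicate 1 or 3 or with the same median in every library (adjusted p = 0.0509 to 0.126). Exoc6 fell in WTHK2 (-0.23, SE 0.063, adjusted p = 0.0053). There 9 of the 14 listed genes that flank it fell too (median of the 14 -0.29), beside 25.4% of all genes. In LAC the call of Exoc6 (-0.16) was lost without EV replicate 2 or 3 or LAC replicate 1 or 2, with quantile normalization, with the same median in every library or without replicate 1 of both WTHK2 and LAC (adjusted p = 0.0648 to 0.138).

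HOPS and CORVET tether late and early endosomes and share most subunits. Among their 8 genes 3 fell and 0 rose in WTHK2, and 4 fell and 2 rose in LAC. The falls are 37.5% in WTHK2 and 50% in LAC, beside 25.4% and 27.1% of all genes. In every fit 1 fall held in WTHK2, which is a smaller share of the 8 than the 17% of all genes. In LAC 2 falls held (25%, beside 19.1% of all genes), and 0 rises did. Vps33a, which binds and assembles SNAREs for HOPS, stood at 58.9, 60.2 and 63.8 CPM in EV libraries 1 to 3, 47.8, 51.2 and 56.4 in WTHK2 and 42.8, 46.1 and 44.5 in LAC. All EV values were above the WTHK2 values, and those above the LAC values. Its changes were -0.23 (SE 0.065, adjusted p = 0.00622) and -0.45 (SE 0.065, adjusted p = 1.9e-05). Vps33b, the paralogue that works with Vipas39 in another complex, was at 0.15 in WTHK2 with no call and 0.17 in LAC, a call lost without EV replicate 2 or 3 or LAC replicate 1 or 3 (adjusted p = 0.0549 to 0.18). Vps8, a subunit of CORVET alone, fell in LAC (-0.22, SE 0.061, adjusted p = 0.00621). Its WTHK2 call (-0.20) was lost without EV replicate 1 or WTHK2 replicate 2 (adjusted p = 0.0504 to 0.0506). Vps39, of HOPS, was called at -0.17 and -0.16, calls lost without EV replicate 2 (adjusted p = 0.0581) in WTHK2 and without EV replicate 2 (adjusted p = 0.0702) in LAC. In the 4 genes of the GARP and EARP tethers, no call held in every fit.

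SNAREs are the fusion proteins themselves, and few were called. Of 11 syntaxin and VAMP genes 1 rose and 0 fell in WTHK2, and 1 rose and 1 fell in LAC. The rises are 9.09% in each comparison, beside 21% and 22.4% of all genes, and the LAC fall is 9.09%, beside 27.1%. The riser was Vamp8, an endosomal and secretory VAMP, at 66, 67.5 and 66.7 CPM in EV libraries 1 to 3, 76.7, 81.5 and 81.8 in WTHK2 and 77.8, 74.3 and 73.9 in LAC. EV held its 3 lowest values, and the changes were 0.26 (SE 0.051, adjusted p = 0.000393) and 0.17 (SE 0.051, adjusted p = 0.00811). Vamp7, a lysosomal and late endosomal VAMP, was called lower in LAC (-0.19), a call lost without EV replicate 2 or 3 or LAC replicate 1 or 3, with quantile normalization, with the same median in every library or without replicate 1 of both WTHK2 and LAC (adjusted p = 0.0713 to 0.159). The other 9, syntaxins of the Golgi, endosomes and plasma membrane among them, were not called, and their changes lay between -0.20 and 0.12. All 3 genes with Vps symbols but other roles rose in LAC: Vps45, which regulates SNARE assembly at the Golgi and endosomes (0.23, SE 0.074, adjusted p = 0.0123), Vps9d1 (0.30, SE 0.075, adjusted p = 0.00235) and the chromatin gene Vps72 (0.24, SE 0.055, adjusted p = 0.00132). In WTHK2 Vps45 was not called (0.09). The WTHK2 call of Vps9d1 (0.24) was lost without EV replicate 2 or WTHK2 replicate 1 or without replicate 1 of both WTHK2 and LAC (adjusted p = 0.0641 to 0.0858), and that of Vps72 (0.17) without EV replicate 2 or WTHK2 replicate 2 or 3 (adjusted p = 0.0528 to 0.082).

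WTHK2 and LAC differed from each other in few members. Higher in WTHK2 were 10 of 162 (6.17%, beside 8.37% of all genes), and lower were 6 (3.7%, beside 7.76%). In 31 members (19.1%) the libraries of these groups did not overlap, beside 29% of all genes. These counts rest on single libraries: the higher members numbered 18 without WTHK2 replicate 1, 5 without WTHK2 replicate 2 and 4 without WTHK2 replicate 3 or LAC replicate 1. The lower members numbered 3 without any 1 EV library or without WTHK2 replicate 1 or 2, 2 without WTHK2 replicate 3 or LAC replicate 3, and 1 without LAC replicate 1. Calls that held in every fit numbered 4: Rab4a, Rab5c and Arl4d, which were higher in WTHK2, and Rab5if, which was lower. These are 1.85% of members higher and 0.617% lower, beside 3.76% and 3.45% of all genes. Rab4a differed by 0.41 (SE 0.069, adjusted p = 0.000259), a mean of 46.8 against 35 CPM. Arl4d differed by 0.27 (SE 0.064, adjusted p = 0.00529). The difference at Rab5c was 0.19 (SE 0.033, adjusted p = 0.000484). Of the 14 listed genes that flank it 9 were called the same way (median of the 14 0.18), beside 8.37% of all genes. Rab5if, the assembly factor of the endoplasmic reticulum, stood at 155, 156 and 156 CPM in EV libraries 1 to 3, 156, 156 and 153 in WTHK2 and 180, 181 and 191 in LAC. Its LAC libraries were above all the others, and WTHK2 minus LAC was -0.25 (SE 0.04, adjusted p = 0.000186).

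The other 12 differences were each lost in at least 1 fit. In the fit of all 9 libraries the genes higher in WTHK2 were Tbc1d22a (0.23), Vps13c (0.22), Vps33a (0.21), Rab6a (0.20), Rab11b (0.19), Vps25 (0.17) and Ap3d1 (0.11). Those lower in WTHK2 were Tbc1d19 (-0.25), Rab24 (-0.18), Arl3 (-0.15), Arl2 (-0.14) and Rab12 (-0.14). At Arl3, 8 of the 14 flanking listed genes were also called lower in WTHK2 than in LAC (median of the 14 -0.19), beside 7.76% of all genes. Without LAC replicate 1 the calls of Ap3d1, Arl2, Arl3, Rab11b, Rab12, Rab24, Rab6a, Tbc1d19, Tbc1d22a, Vps13c and Vps33a were lost (adjusted p = 0.0532 to 0.219). Without LAC replicate 2 the calls of Ap3d1, Rab12 and Vps25 were lost (adjusted p = 0.0754 to 0.0941). Without LAC replicate 3 the calls of Arl2, Arl3, Rab12, Rab24, Rab6a, Tbc1d19, Tbc1d22a and Vps33a were lost (adjusted p = 0.076 to 0.171). Without WTHK2 replicate 1 the calls of Ap3d1, Arl2, Rab12 and Tbc1d19 were lost (adjusted p = 0.0636 to 0.215). Without WTHK2 replicate 2 the calls of Ap3d1, Arl2, Arl3, Rab11b, Rab24, Rab6a, Vps25 and Vps33a were lost (adjusted p = 0.0564 to 0.215). Without WTHK2 replicate 3 the calls of Ap3d1, Arl3, Rab11b, Rab12, Rab24, Rab6a, Tbc1d19, Tbc1d22a, Vps13c and Vps33a were lost (adjusted p = 0.0543 to 0.234). Leaving out any 1 EV library, which enters this comparison only through the spread, ended those of Ap3d1, Rab12, Rab24, Rab6a and Tbc1d19 (adjusted p = 0.0557 to 0.0708). Rab5b and Snx27, whose LAC falls were larger than their WTHK2 falls, were not called between WTHK2 and LAC: the difference was 0.24 (SE 0.099, adjusted p = 0.104) for Rab5b and 0.25 (SE 0.09, adjusted p = 0.0623) for Snx27. Their 95% intervals ran from 0.04 to 0.45 and from 0.06 to 0.44.

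**Figure D4:**
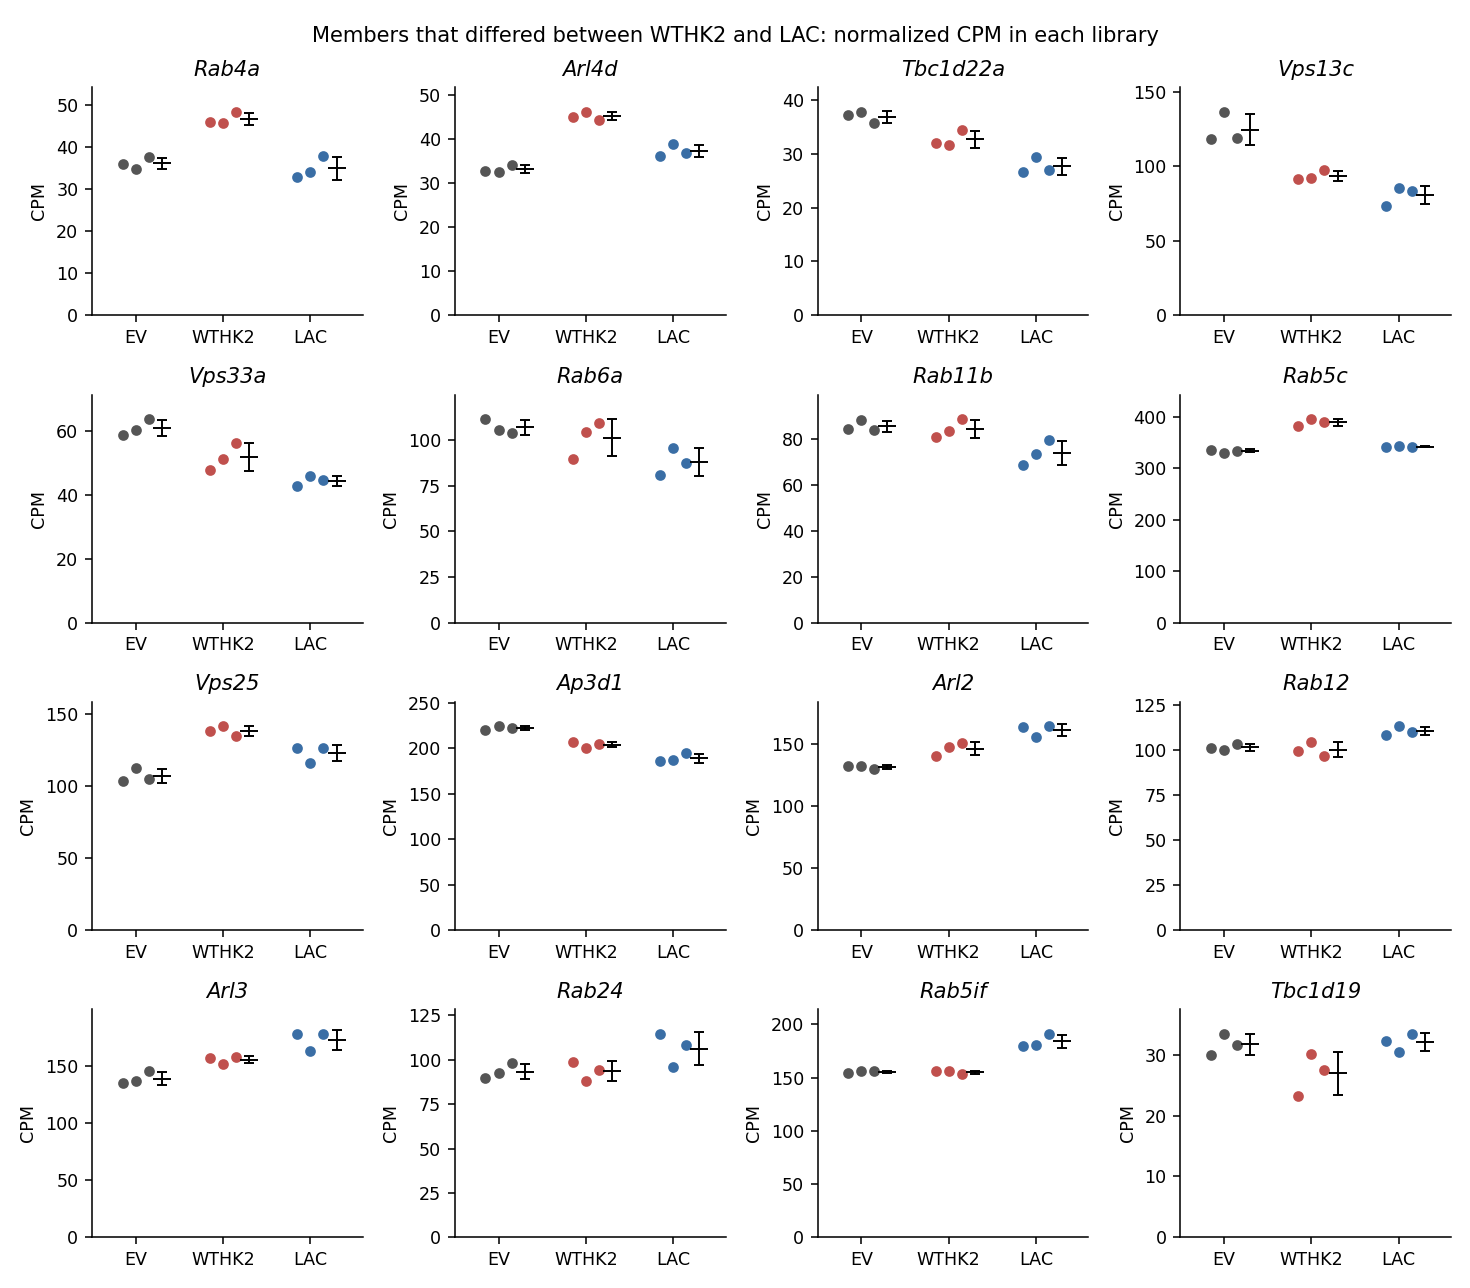
Each panel shows the normalized CPM (y axis, from 0) of 1 of the 16 members called between WTHK2 and LAC, in the 3 libraries of each group, with the group mean and SD in black. Rab4a has its WTHK2 points above both other groups, and Rab5if, near the end of the panels, has its LAC points above both.

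The genes that work with these members were taken from 6 further lists outside the symbol rule, whose counts stand beside 21% of all genes higher and 25.4% lower in WTHK2, and 22.4% and 27.1% in LAC. Of 22 Rab cycle factors 3 rose and 7 fell in WTHK2, and 3 rose and 7 fell in LAC, so that the falls are 31.8% in each. The falls were led by 2 DENN-domain exchange factors for Rab10 and related Rabs: Dennd4a (-0.81, SE 0.1, adjusted p = 3.67e-06 and -0.66, SE 0.1, adjusted p = 3.49e-05) and Dennd4c (-0.49, SE 0.08, adjusted p = 6.1e-05 and -0.52, SE 0.08, adjusted p = 3.24e-05). Of 22 Arf regulators 2 rose and 7 fell in WTHK2 (falls 31.8%), and 2 rose and 10 fell in LAC (falls 45.5%). Arfgef1 and Arfgef2, the large exchange factors that load Arfs with GTP at the Golgi and recycling endosomes, fell in both (-0.48 and -0.47 for Arfgef1, -0.46 and -0.28 for Arfgef2), beside the rise of Arf5. Partners of ESCRT and retromer were mixed, with 8 rises and 5 falls among 32 in WTHK2 (25% and 15.6%) and 8 rises and 7 falls in LAC (25% and 21.9%). Mvb12a, an ESCRT-I subunit, rose in both (0.30 and 0.25), and Ehd2, an ATPase of caveolae, rose in WTHK2 (0.33, SE 0.054, adjusted p = 6.86e-05) and not by call in LAC (0.01).

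Clathrin and endocytosis genes, 22 in number, gave 6 rises and 7 falls in WTHK2 (27.3% and 31.8%) and 3 rises and 8 falls in LAC (13.6% and 36.4%). Hip1, which links clathrin to actin, fell in both (-0.55, SE 0.075, adjusted p = 1.04e-05 and -0.50, SE 0.075, adjusted p = 2.49e-05). Dab2, a clathrin adaptor, rose in WTHK2 (0.38, SE 0.052, adjusted p = 8.46e-06). In LAC its call (-0.14) was lost without EV replicate 1 or 3 or LAC replicate 1 or 3, with quantile normalization, with the same median in every library or without replicate 1 of both WTHK2 and LAC (adjusted p = 0.0554 to 0.101). Among 14 SNARE partners 1 rose and 3 fell in WTHK2 (falls 21.4%), and 1 rose and 6 fell in LAC (falls 42.9%). The Golgi SNARE GOSR1 fell in both (-0.36 and -0.48), and NSF, the ATPase that recycles SNAREs, fell in LAC (-0.31, SE 0.035, adjusted p = 1.64e-06) with -0.07 and no call in WTHK2. Cargo receptors numbered 16, with 4 rises and 5 falls in WTHK2 (falls 31.2%) and 2 rises and 7 falls in LAC (falls 43.8%). Vldlr, a receptor for reelin, fell in WTHK2 (-0.47, SE 0.062, adjusted p = 5.52e-06) and was not called in LAC (-0.05). Igf2r, the mannose 6-phosphate receptor that retromer retrieves, fell in both (-0.25 and -0.34), and Tfrc, the transferrin receptor, fell in LAC (-0.30, SE 0.046, adjusted p = 4e-05) and not by call in WTHK2 (0.03).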

How the data were processed

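The deposited table holds normalized CPM for 6753 genes in 9 libraries, computed by the authors, and all of its columns were used. Per the submitters' processing notes, the tools were STAR 2.7.0a, featureCounts 2.0.1, cutadapt 1.18, edgeR 3.8 and FastQC 0.11.8. Genome build, annotation and strand setting: not given in the sources used here. Reads shared by paralogues or overlapping genes may therefore have been split or dropped. Listed genes summed to 80.3% to 81.4% of the CPM scale in each library. Values were taken as log2(CPM + 1) and fitted over all 9 libraries with limma 3.58.1 (R 4.3.3; variance trend, two-sided tests, Benjamini-Hochberg adjustment over all genes). A mean of at least 1 CPM was required and removed 0 genes. The script was tested on simulated data. Alternatives were other scalings, pseudocounts, filters, variance models, voom, a replicate block and leaving out libraries. RefSeq's gene order (CriGri-PICRH assembly) placed 149 members, with the 7 listed genes on each side taken as neighbours where a scaffold held them. Neighbours are printed only for Rab5c, Vps25, Vps37c, Exoc6 and Arl3, and no coordinates are printed.

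Members and lists were chosen with earlier results of these data known. The rule for named genes took called genes without overlap between groups (the 10 largest rises and falls against EV, and 5 in each direction for WTHK2 against LAC), up to 4 genes a role list by adjusted p, paralogues that moved oppositely or differed by at least 0.3, and up to 2 genes a pathway list. Named beyond it, after their values were seen, were further AP (Ap3m1 among them), Arf, syntaxin, VAMP and Rab members, Rab3gap1, Snx1, Snx5, Snx6, Vps29, Vps35l, Vps4a, Clta, Cltb and Tfrc.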

Additional observations from a re-analysis of the deposited data

How the results depend on the processing

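No member's call reversed under an alternative. The marker gene Vim, at 0.03 on the log2 scale in LAC against EV with no call (adjusted p = 0.362), was called at -0.0625 with quantile normalization (adjusted p = 0.0127). The 21 rises in WTHK2 against EV became 35 with the same median in every library, and ranged from 16 to 23 with 1 library left out. The 50 falls became 31 at an adjusted p under 0.01 and ranged from 35 to 53. The 25 rises in LAC against EV became 13 at that threshold and ranged from 17 to 28, and the 62 falls ranged from 48 to 63. The 10 members higher in WTHK2 than in LAC became 5 without the variance trend, 5 with only the 6 libraries compared and 3 at an adjusted p under 0.01, and ranged from 4 to 18 with 1 library left out. The 6 lower members became 1 without the variance trend, 2 with only the 6 libraries compared, 1 at an adjusted p under 0.01 and 1 without replicate 1 of both WTHK2 and LAC, and ranged from 1 to 6. Apart from fewer libraries or a stricter threshold, the cause was not tested.

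With the replicate number as a block, the counts were 25 rises and 59 falls in WTHK2, 30 and 65 in LAC, and 16 higher and 6 lower in WTHK2 than in LAC. Of all genes, 23.1% rose and 27.8% fell in WTHK2 with the block, and 24.8% rose and 28.7% fell in LAC. Between WTHK2 and LAC, 10.8% of all genes were higher and 10.1% lower. Same-numbered libraries deviated together only in part: their correlations over genes were 0.076, 0.14 and -0.0057 between WTHK2 and EV, 0.017, 0.207 and 0.03 between LAC and EV, and 0.437, 0.251 and 0.073 between WTHK2 and LAC. Not every library correlated best with its own number, so the numbers were not taken to pair the libraries. Of the 174 called changes of the members and listed genes that were followed, the block kept 174. A planned count test was not run, since the table holds normalized CPM. Filters at 0 and 5 CPM and pseudocounts of 0.25 and 4 left all 174 calls in place, and 0 genes fell under the filter. The table holds no gene with a mean under 20.4 CPM, so genes below that level are not described.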

Other observations

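Among genes of the 6 lists outside the symbol rule, several that the naming rule did not take had calls that held in each of the 21 other fits, and those below were chosen after their values were seen. Acap3, a GTPase-activating protein for Arf6, rose in WTHK2 (0.52, SE 0.073, adjusted p = 1.31e-05), was not called in LAC (0.08) and differed between WTHK2 and LAC (0.44, SE 0.073, adjusted p = 0.000257). Its relative Acap2, a Rab35 effector that acts on Arf6 too, fell in both comparisons against EV (-0.36 in WTHK2 and -0.36 in LAC). The scaffold genes Itsn1 and Itsn2, which gather endocytic proteins around AP2, fell in both (-0.20 and -0.30 for Itsn1, -0.35 and -0.49 for Itsn2), as did Synj1, the phosphatase that helps to uncoat clathrin vesicles (-0.28 and -0.34). Rabggtb, the catalytic subunit that attaches the lipid anchor to Rabs, rose in both (0.20 and 0.21).

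Cargo receptors that were higher in WTHK2 than in LAC included Scarb1, a receptor for high-density lipoprotein (0.27, SE 0.047, adjusted p = 0.000451), Itgb1, the beta-1 integrin (0.19, SE 0.036, adjusted p = 0.000706), and Lrp8, a receptor for reelin and apolipoprotein E (0.24, SE 0.044, adjusted p = 0.000735). Snf8, a partner of Vps25 in ESCRT-II, was also higher in WTHK2 than in LAC (0.22, SE 0.05, adjusted p = 0.00464), and so was Gga2, a Golgi adaptor that reads ubiquitin and sorting signals (0.20, SE 0.05, adjusted p = 0.00805).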
